A study of Mus musculus with 24 samples.

Results

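The 12 hypothalamus libraries compared here are those with the most and the least Drd2, the gene of the dopamine D2 receptor, among the 24 libraries of the study. The 24 libraries were ranked by Drd2 FPKM (fragments per kilobase of transcript, scaled to the size of the library). The members were chosen by this measured value: the 6 highest libraries were set against the 6 lowest. Total RNA came from the hypothalamus of C57BL6 mice aged 15 months, per the labels. The mice had eaten 1 of 4 diets freely from 12 weeks of age, with the same energy (14.4 MJ/kg) and 18.8% protein, 63.4% carbohydrate and 17.8% fat. Leucine, isoleucine and valine (branched-chain amino acids, BCAA) were set to 20% of the AIN93G content in BCAA20, 50% in BCAA50, 100% in the chow control BCAA100 and 200% in BCAA200. There were 3 females (replicates 1 to 3) and 3 males (replicates 4 to 6) on every diet.

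The striatum is a forebrain region whose principal cells are GABA-releasing medium spiny neurons. Neurons of the indirect pathway carry the D2 receptor, which lowers cyclic AMP, with an adenosine receptor and enkephalin, whereas neurons of the direct pathway carry the D1 receptor, which raises cyclic AMP, with substance P and dynorphin. The D2 receptor is also an autoreceptor of dopamine neurons in the midbrain and occurs in hypothalamic cells, so Drd2 alone does not define striatal tissue. The striatum and the ventral pallidum lie beside the front of the hypothalamus.

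Because Drd2 chose the libraries, the high and low sides are described without a test. Drd2 was at 26.0 FPKM in BCAA200 female replicate 3, 21.6 in BCAA100 female replicate 3, 20.9 in BCAA100 male replicate 4, 18.7 in BCAA20 male replicate 5, 17.6 in BCAA100 male replicate 5 and 16.8 in BCAA200 male replicate 6. On the low side it was at 5.86 FPKM in BCAA50 male replicate 5, 5.48 in BCAA50 male replicate 4, 5.48 in BCAA200 male replicate 4, 4.46 in BCAA200 female replicate 2, 3.31 in BCAA20 female replicate 1 and 3.17 in BCAA20 male replicate 4. The nearest libraries outside the sides were BCAA20 female replicate 3 at 13.1 FPKM, below the high side, and BCAA20 male replicate 6 at 6.88 FPKM, above the low side. The upper boundary therefore falls in a wider gap than the lower.

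The high side held 3 BCAA100, 2 BCAA200, 1 BCAA20 and 0 BCAA50 libraries. The low side held 2 BCAA20, 2 BCAA50, 2 BCAA200 and 0 BCAA100 libraries. Each side had 2 females and 4 males. All BCAA100 libraries, and no others, were sequenced in lane 2 per the labels, so 3 of the 6 high libraries and 0 of the 6 low ones came from lane 2, and diet and lane cannot be told apart in that respect.

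Libraries with reasons for doubt were kept and are also left out in turn. In BCAA20 male replicate 6, which lies between the sides, Xist was at 154 FPKM, against its sex label. Slc17a7, the vesicular glutamate transporter of cortical neurons, was under 20 FPKM in BCAA50 female replicate 1 and BCAA100 male replicate 6, between the sides, and in BCAA100 male replicate 5, on the high side, where it was at 3.99 FPKM. Hypothalamic peptide genes were uneven: BCAA100 male replicate 6 had Avp at 0.658 FPKM, Oxt at 0.355 and Hcrt listed at 0, but Cartpt at 21.9 and Sst at 50.55 FPKM. On the high side, BCAA200 male replicate 6 had Avp at 2.03 and Oxt at 1.26 FPKM, but Hcrt at 20.7, Pmch at 90.6 and Sst at 280.01 FPKM. Columns summed to between 293850 and 328809 FPKM and the depth is unknown.

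**Figure D1:**
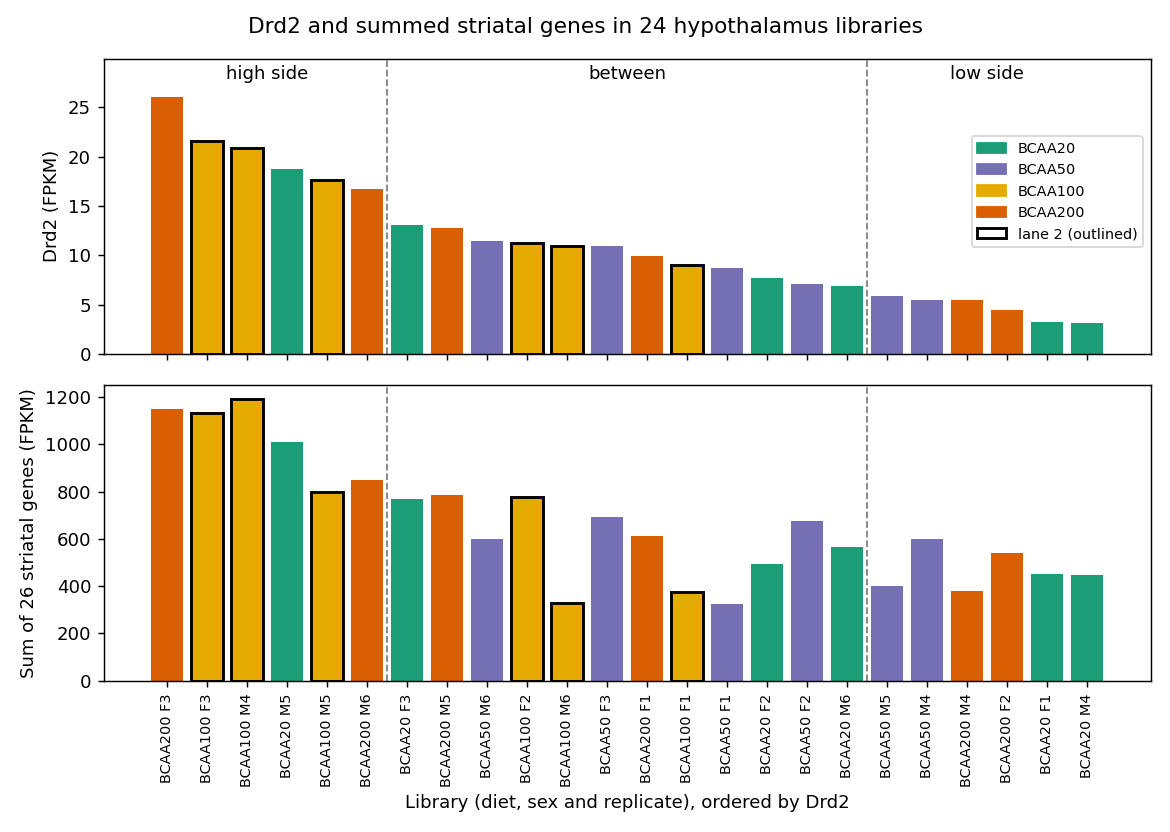
Drd2 in FPKM (upper bars) and the summed FPKM of 26 genes shared by both kinds of medium spiny neuron (lower bars) in each of the 24 libraries, ordered by Drd2, with colours for diets and black outlines for lane 2. The 6 Drd2-high libraries are also the 6 with the highest striatal sums, from 799 to 1192 FPKM, whereas the 3 lowest sums lie between the dashed lines and not on the low side.

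The label of the high side as rich in striatal genes held in these data, and that of the low side held only in part. The summed level of 26 genes shared by both kinds of medium spiny neuron was 799 to 1192 FPKM in the high libraries and 377 to 600 FPKM in the low ones, so the sides did not overlap. The 6 high libraries took ranks 1 to 6 of this sum. The low libraries took ranks 13, 16, 18, 19, 20 and 21, and the lowest sums, 322, 327 and 375 FPKM, belonged to BCAA50 female replicate 1, BCAA100 male replicate 6 and BCAA100 female replicate 1, whose Drd2 was in the middle range. The sides are therefore called Drd2-high and Drd2-low. Arpp21, 1 of the 26 genes, was at 9.26, 7.43 and 43.9 FPKM in the libraries with sums of 322, 327 and 375 FPKM. The low libraries at ranks 20 and 21, BCAA50 male replicate 5 and BCAA200 male replicate 4, had 84.1 and 51.6 FPKM of it. The order of the lowest sums thus depends in part on this gene. BCAA50 female replicate 1 and BCAA100 male replicate 6 are also libraries with Slc17a7 under 20 FPKM, and its relation to the striatal sum was not tested.

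Striatal signalling and receptor genes led the difference. Of 13805 genes whose mean over the 24 libraries was 1 FPKM or more (Drd2 left out), 105 were higher in every high library than in any low library, which is 0.761%, and 35 were lower, which is 0.254%. At least a 2-fold difference on the scale of log2(FPKM + 0.5), which understates changes of low genes, was seen for 33 of the higher and 2 of the lower genes. Of 43 tested genes on the striatal lists, 20 were among the 105 and 41 had a difference above 0, with a median of 1.03 against 0.01 over all genes tested (log2). Over all 13805 genes tested, 7477 differences were above 0 and 6328 below, which is the background of every such count. These counts carry no test, because libraries chosen for high Drd2 would also be high in whatever goes with it. In bulk samples, fewer cells of a type and less RNA per cell cannot be told apart.

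Receptor genes of both pathways were among the separated genes, though not all of them. Adora2a, the adenosine receptor of the indirect pathway, ran from 6.63 to 29.2 FPKM (median 11.5) in the high libraries and from 0.239 to 5.16 FPKM (median 0.558) in the low ones. No low library reached the lowest high one, and the difference of mean log2 values was 3.20. Drd1, the D1 receptor of the direct pathway, ran from 19.4 to 37.0 FPKM (median 28.9) against 2.93 to 10.8 FPKM (median 6.15), a log2 difference of 2.16. The gene chosen as the marker of indirect-pathway cells thus sorted the direct-pathway receptor as well. Gpr6, an orphan receptor of the indirect pathway, ran from 5.46 to 9.84 FPKM against 1.06 to 2.84 FPKM, also without overlap. Chrm4, a muscarinic acetylcholine receptor of the direct pathway, overlapped, at 12.8 to 24.3 FPKM against 6.396 to 17.8 FPKM. Drd3, the D3 receptor, had a mean under 1 FPKM over all libraries and was not tested. It was at 0.131 to 2.32 FPKM in the high and 0.005 to 0.599 FPKM in the low libraries.

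Some enzymes and regulators downstream of the receptors also had large differences. Pde10a, a phosphodiesterase of medium spiny neurons, ran from 22.5 to 41.7 FPKM (median 32.7) in the high libraries and from 0.199 to 16.3 FPKM (median 3.58) in the low ones. With a log2 difference of 3.33 it had the largest difference of the 13805 genes, and the low libraries themselves spread widely, from BCAA50 male replicate 5 at the bottom to BCAA200 female replicate 2 at the top. Rgs9, a regulator that shortens G-protein signals, ran from 27.5 to 63.3 FPKM (median 43.8) against 2.01 to 19.0 FPKM (median 8.88). Scn4b, a sodium channel beta subunit, ran from 23.5 to 60.1 FPKM (median 47.8) against 5.57 to 10.9 FPKM (median 7.70), with a far narrower low side. Their log2 differences were 2.43 and 2.40.

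Of 17 tested genes on a list of dopamine receptor signalling, 6 did not overlap and were higher, and 0 were lower. Over all genes tested these shares were 0.761% and 0.254%. The median log2 difference of the list was 0.41. The 6 genes were Pde10a, Rgs9, Adcy5, Gng7, Pde1b and Ptpn5. All of them are also on the shared striatal list and are counted there, so they are not a separate result. Adcy5, the main striatal adenylyl cyclase, was at 45.8 to 64.4 FPKM in the high and 21.1 to 34.1 FPKM in the low libraries. Gng7, a G-protein gamma subunit, was at 38.03 to 56.2 FPKM against 15.1 to 27.3 FPKM. Pde1b, a calcium-dependent phosphodiesterase, was at 94.6 to 141 FPKM against 45.3 to 67.9 FPKM. These genes kept a substantial level on the low side, unlike Adora2a. Ppp1r1b, which encodes the dopamine-regulated phosphatase inhibitor DARPP-32, had a log2 difference of 1.71, but its sides overlapped, since BCAA100 female replicate 3 had 74.6 FPKM and BCAA200 female replicate 2 had 83.8 FPKM. Gnal, the olfactory-type G-protein alpha subunit used by striatal receptors, overlapped by a small margin, with 37.7 FPKM in the lowest high and 37.98 FPKM in the highest low library.

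Peptide genes differed less evenly. Penk, the enkephalin precursor, ran from 138 to 251 FPKM (median 194) in the high libraries and from 54.7 to 125 FPKM (median 70.2) in the low ones, without overlap and with a log2 difference of 1.33. Tac1, the substance P precursor, ran from 31.5 to 115 FPKM against 25.7 to 52.9 FPKM, and Pdyn, the dynorphin precursor, ran from 9.71 to 44.6 FPKM against 5.001 to 15.2 FPKM. Both direct-pathway peptides overlapped between the sides. Of the 9 tested genes on the indirect-pathway list, 3 did not overlap and all 9 differences were above 0 (median 0.69). Of 8 on the direct-pathway list, 2 did not overlap and 7 differences were above 0 (median 0.78).

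Transcription factors and other shared genes completed the list of 26, of which 15 were higher without overlap, 0 were lower and the median log2 difference was 1.14. Rarb, a retinoic acid receptor of the striatum, was at 5.74 to 12.1 FPKM against 1.84 to 4.88 FPKM, and Rasd2, a small G protein, was at 32.3 to 59.1 FPKM against 12.0 to 22.4 FPKM. Bcl11b and Meis2, transcription factors of medium spiny neurons that other forebrain cells also express, overlapped between the sides. Cnr1, the cannabinoid receptor CB1, was the exception on the list: it was at 19.3 to 29.6 FPKM in the high and 20.8 to 25.9 FPKM in the low libraries.

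**Figure D2:**
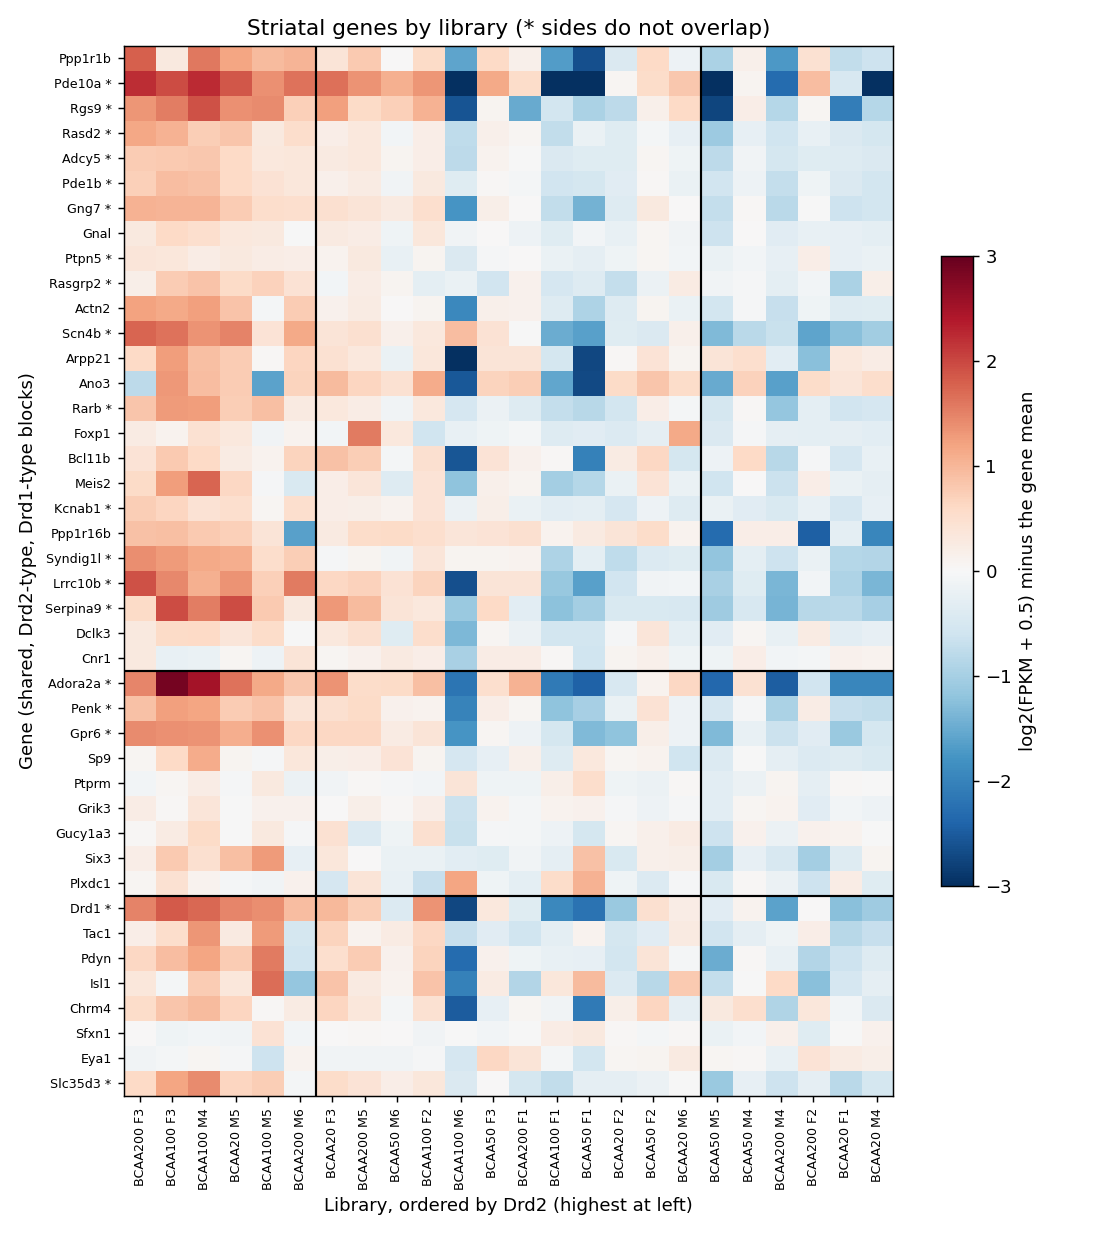
Level of 42 of the 43 striatal-list genes (rows, in blocks for shared, indirect-pathway and direct-pathway genes) in 24 libraries ordered by Drd2, as log2(FPKM + 0.5) minus the mean of the gene, on a colour scale cut at 3 in both directions. The 6 leftmost libraries are red over most rows, BCAA100 male replicate 6, BCAA100 female replicate 1 and BCAA50 female replicate 1 are blue although they lie between the sides, and Cnr1 stays near white in the high and low libraries.

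Other genes among the 10 with the largest higher differences were less typical of receptors. Lrrc10b, a leucine-rich repeat gene on the shared list, ran from 8.68 to 20.5 FPKM against 1.64 to 4.80 FPKM. Syt6, a synaptotagmin, ran from 3.42 to 22.01 FPKM against 0.792 to 3.33 FPKM, and its sides were separated by a narrow gap. Nexn, an actin-binding protein gene, ran from 1.97 to 5.61 FPKM against 0.216 to 1.35 FPKM. Pde7b, a cyclic AMP phosphodiesterase, ran from 9.21 to 20.2 FPKM against 1.25 to 8.11 FPKM. Of the 105 higher genes, 5 were predicted genes and are not named.

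Promoters are shown for Drd2 and for a pair of genes that were higher on the Drd2-high side without overlap. These are the direct-pathway receptor Drd1 and the signal regulator Rgs9. Whether the genes share any regulation was not tested. They are RefSeq promoter windows on GRCm38.p6, from 250 bases before to 50 after the start annotated by RefSeq. Where a gene had several starts, the one farthest upstream was taken. Of 11 genes looked up (Drd2 and the 10 with the largest higher difference), 8 had a window. The choice of Drd1 and Rgs9 was made after their values were seen. Capitals mark matches, on either strand, to a GC box spelled GGGCGG. They also mark the E-box spelled CAGCTG, which reads the same on both strands. The last motif searched was a TATA box with the letters TATAAA, again on either strand.
Drd2, chr9:49340153-49340452, plus strand: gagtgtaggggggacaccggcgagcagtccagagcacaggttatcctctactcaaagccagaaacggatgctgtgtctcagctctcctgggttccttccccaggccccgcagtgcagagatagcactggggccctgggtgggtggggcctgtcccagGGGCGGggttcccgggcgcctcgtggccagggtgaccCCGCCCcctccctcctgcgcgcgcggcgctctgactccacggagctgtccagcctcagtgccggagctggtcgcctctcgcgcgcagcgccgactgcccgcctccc
Drd1, chr13:54055609-54055908, minus strand: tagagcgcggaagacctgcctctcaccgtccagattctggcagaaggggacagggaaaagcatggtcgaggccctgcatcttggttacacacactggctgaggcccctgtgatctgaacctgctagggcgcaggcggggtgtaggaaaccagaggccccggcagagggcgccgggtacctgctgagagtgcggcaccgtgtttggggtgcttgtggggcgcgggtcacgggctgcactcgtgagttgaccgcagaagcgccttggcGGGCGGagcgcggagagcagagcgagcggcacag
Rgs9, chr11:109298132-109298431, minus strand: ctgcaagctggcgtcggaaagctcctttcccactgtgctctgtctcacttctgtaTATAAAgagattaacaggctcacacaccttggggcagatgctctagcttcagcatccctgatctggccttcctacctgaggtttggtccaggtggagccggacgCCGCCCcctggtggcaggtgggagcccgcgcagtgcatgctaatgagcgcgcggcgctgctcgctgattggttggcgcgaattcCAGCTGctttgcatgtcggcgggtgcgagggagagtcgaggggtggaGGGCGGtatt

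The GC box stood in all 3 windows, with 2 matches in Drd2, 1 in Drd1 and 2 in Rgs9, and was present in 35.7% of 32851 RefSeq promoter windows. Rgs9 also held 1 E-box, present in 16.3% of windows, and 1 TATA box, present in 13.6%. No match of the marked motifs overlapped another. Drd2 itself lies at chr9:49340627-49408177, Drd1 at chr13:54051183-54055705 and Rgs9 at chr11:109225355-109298129 in GENCODE M21 (GRCm38), and none of these genes overlaps another annotated gene. By these positions the Drd2 and Rgs9 windows lie wholly upstream of the gene, so the RefSeq and GENCODE starts differ there.

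Genes lower on the high side numbered 35 against 105 higher, and 2 of them differed at least 2-fold. This balance depended on the choice of libraries. With 4 libraries a side 495 were lower and 455 higher, with the lane 1 libraries of both sides 266 and 257, and in lane 1 ranked again 56 and 59. With 8 a side 3 were lower and 37 higher, ranked by Adora2a 31 and 114, and ranked by Drd1 48 and 120. Fewer libraries a side make separation easier by construction, in both directions. Ntf3, the neurotrophin-3 gene, was at 0.243 to 0.934 FPKM in the high and 1.06 to 2.76 FPKM in the low libraries, a log2 difference of -1.13. Ccdc42, a coiled-coil gene, was at 0.543 to 1.48 FPKM against 1.94 to 2.75 FPKM, a log2 difference of -1.12. Aldh1a2, a retinoic acid synthesis enzyme of the meninges, was at 2.20 to 3.96 FPKM against 4.37 to 6.61 FPKM, and Slc22a6, an organic anion transporter, was at 0.742 to 1.32 FPKM against 1.37 to 2.18 FPKM. Rprm, a cell cycle regulator gene also used as a marker of deep cortical neurons, was at 21.2 to 30.6 FPKM against 32.8 to 51.3 FPKM, but its log2 difference turned to 0.0295 when libraries were ranked by Adora2a and to 0.0897 by Drd1. The differences of Cdkl4, Tmem215, Eif4g3, Ppil6 and Tox3 were -0.74, -0.66, -0.61, -0.53 and -0.51, and that of Cdkl4 turned to 0.0366 when ranked by Drd1. The number of lower genes depended on single libraries: it was 77 without BCAA100 male replicate 5, 58 without BCAA200 male replicate 6, 21 without BCAA20 male replicate 4, 22 without BCAA20 female replicate 1 and 23 without BCAA50 male replicate 5, when the remaining libraries were ranked again.

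Markers of other tissues also differed between the sides, and their part in the difference was not tested. Of 14 tested cortex and hippocampus genes, 13 were below 0 with a median log2 difference of -0.55 and 0 without overlap. The summed level of the 14 was 105 to 473 FPKM in the high and 295 to 540 FPKM in the low libraries. Without BCAA100 male replicate 5, a comparison added after seeing the data, this median was -0.16 with 12 genes below 0, and Slc17a7 moved from -1.12 to -0.26. The median of the striatal lists was 0.99 without that library. Of 9 meningeal genes, 8 were below 0 (median -0.48, sums 31.9 to 83.7 against 45.6 to 110 FPKM). All 5 red blood cell genes were below 0 (median -1.14), with sums of 222 to 614 FPKM in the high and 359 to 3775 FPKM in the low libraries, and the highest low library was BCAA20 male replicate 4 with Hba-a1 at 952 FPKM. Without that library, again added after seeing the data, the median of the red blood cell genes was -0.70, still with all 5 below 0. The 16 hypothalamic peptide genes had a median of -0.03 and 0 that did not overlap, but their range was wide: Avp ran from 2.03 to 262 FPKM in the high libraries against 59.3 to 127 FPKM in the low ones. Without BCAA100 male replicate 5 the median of the peptide genes was -0.18, with 12 of the 16 below 0 and 1 lower without overlap. All 10 genes of GABA neurons were above 0 (median 0.45), and Dlx6, a forebrain GABA neuron transcription factor, did not overlap, at 7.54 to 21.5 FPKM against 2.48 to 4.48 FPKM.

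**Figure D3:**
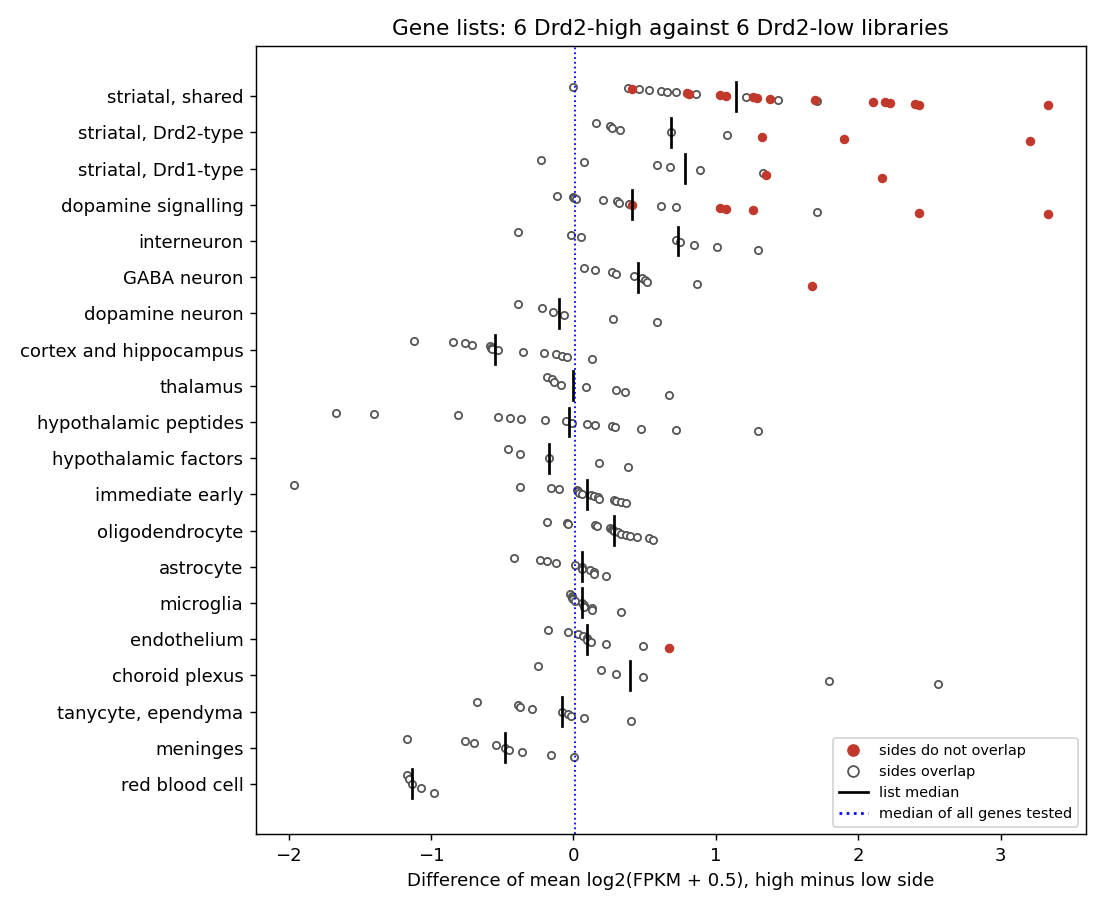
Difference of mean log2(FPKM + 0.5), 6 Drd2-high minus 6 Drd2-low libraries, for each tested gene (points) of 20 lists, with a black bar at the list median and a dotted line at the median of all genes tested. Filled points are genes whose sides do not overlap, and they lie mostly in the striatal lists (15 of 26 in the shared list). The filled points of the dopamine signalling list are genes that are also on the shared list. The red blood cell list lies wholly below 0 with a median of -1.14.

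Dopamine neuron genes did not follow the sides. Slc6a3, the dopamine transporter, was at 31.6 FPKM in BCAA200 female replicate 3 and 23.5 FPKM in BCAA200 male replicate 6, and at 0.489 to 2.27 FPKM in the other 4 high libraries. On the low side it was at 30.2 FPKM in BCAA50 male replicate 5 and 21.1 FPKM in BCAA200 male replicate 4, and at 0.208 to 5.55 FPKM in the other 4. Each side thus held a pair of libraries with the transporter and 4 with little of it. Of 6 tested dopamine neuron genes, 2 were above 0 and 0 did not overlap (median -0.10, sums 46.0 to 146 against 29.996 to 141 FPKM).

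Among the libraries between, Drd2 was found with low striatal sums and little Drd1 in 3 libraries that carried dopamine neuron genes. BCAA100 male replicate 6 had 10.9 FPKM of Drd2 with 0.395 FPKM of Adora2a and 1.10 of Drd1, but 42.8 of Th, the rate-limiting enzyme of dopamine synthesis, and 48.7 of Slc6a3. BCAA100 female replicate 1 had 9.01 FPKM of Drd2 with 2.23 of Drd1, 45.6 of Th and 46.1 of Slc6a3. BCAA50 female replicate 1 had 8.77 FPKM of Drd2 with 1.76 of Drd1, 31.4 of Th and 21.2 of Slc6a3. The highest Slc6a3 of all 24 libraries was that of BCAA100 male replicate 6. Dopamine neuron genes were not limited to libraries with low striatal sums: BCAA50 male replicate 6 had 29.6 FPKM of Slc6a3 and 29.0 of Th with a sum of 599 FPKM, and BCAA200 female replicate 1 had 25.9 FPKM of Slc6a3 with a sum of 612 FPKM. Conversely, BCAA50 female replicate 2 had a striatal sum of 674 FPKM with 7.06 FPKM of Drd2 and 0.123 FPKM of Slc6a3. BCAA100 male replicate 6 and BCAA50 female replicate 1 also had 29.4 and 15.2 FPKM of Tcf7l2, a thalamic transcription factor, against at most 3.04 FPKM in the 12 high and low libraries.

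**Figure D4:**
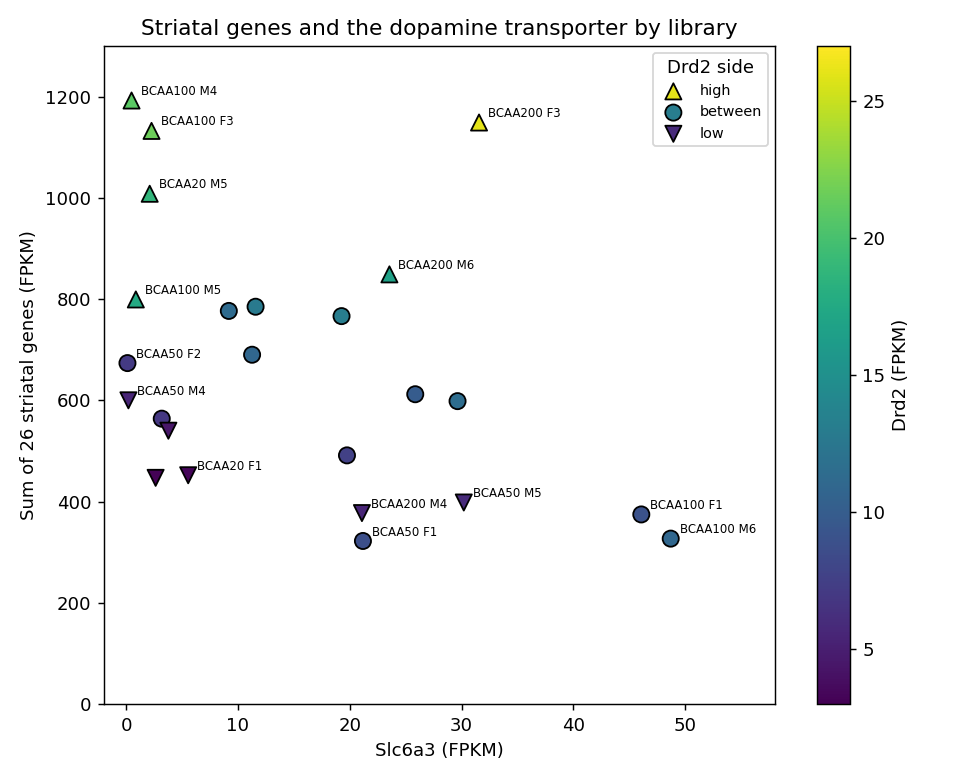
Summed FPKM of 26 shared striatal genes against Slc6a3 FPKM in 24 libraries, coloured by Drd2 FPKM, with triangles for the high and low sides and circles for the libraries between. Libraries with little Slc6a3 go from low to high Drd2 as the striatal sum rises, and BCAA100 male replicate 6 and BCAA100 female replicate 1 lie at the lower right with 48.7 and 46.1 FPKM of Slc6a3.

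The 12 libraries between, which are in neither side, were used to test the relation to Drd2 in the middle range. They were set apart by the same Drd2 values that served as the predictor, so the test is not independent of the ranking. Over these libraries Drd2 ranged from 6.88 to 13.1 FPKM only. The slope of log2(FPKM + 0.5) on log2(Drd2 + 0.5) was tested with limma, two-sided, with Benjamini-Hochberg adjustment over 13805 genes. No gene passed an adjusted p under 0.05 (0%), and the lowest adjusted p was 0.614, for Tgfb1i1. At an unadjusted p under 0.05, 190 genes had a positive slope (1.38%) and 213 a negative slope (1.54%).

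Of the 105 genes higher on the high side, 82 (78.1%) had a positive slope over the libraries between, against 48.1% of all genes, and 11 of them passed the unadjusted threshold upwards. All 20 of the striatal-list genes among them had positive slopes, but the genes share libraries and are not independent of each other. Of the 35 lower genes, 23 (65.7%) had a negative slope, against 51.9% of all genes. Of all 43 striatal-list genes, 37 had a positive slope and the median was 0.42. All 26 shared genes had positive slopes, with 3 at an unadjusted p under 0.05, while 5 of 9 indirect-pathway genes and 6 of 8 direct-pathway genes were positive. With Slc6a3 as a covariate, an alternative chosen after seeing the data, 0 genes passed the adjusted threshold (lowest adjusted p 0.147 in limma), 40 of 43 striatal slopes were positive, their median was 1.03, and 33 of the 105 higher genes had an unadjusted p under 0.05 upwards (1.54% over all genes).

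Kcnab1, a potassium channel beta subunit on the shared striatal list, had the lowest unadjusted p of the striatal genes, with a slope of 0.74 ± 0.177 (SE, n = 12), and a limma p of 0.00114. It was at 14.8 to 28.4 FPKM between the sides, 22.4 to 35.7 FPKM on the high side and 14.9 to 18.6 FPKM on the low side. Scn4b had a slope of 1.29 ± 0.641 (SE) with an unadjusted limma p of 0.0665, and Drd1 had a slope of 1.06 ± 1.22 (SE) with an unadjusted limma p of 0.401. In the 3 middle libraries with the lowest striatal sums, Drd1 was at 1.10, 2.23 and 1.76 FPKM. Other genes with the lowest unadjusted p were Mir485, Mir124a-1, Crtc2 and Wdr3 with slopes of 3.21, 4.75, 0.90 and 0.54, and Tgfb1i1, Alg5, Agrn, Ltbp4 and Ccdc130 with slopes of -2.26, -1.61, -0.41, -1.002 and -1.05. None of these 9 genes is on a striatal list, and both microRNA genes overlap another gene on the same strand, so their values are uncertain.

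**Figure D5:**
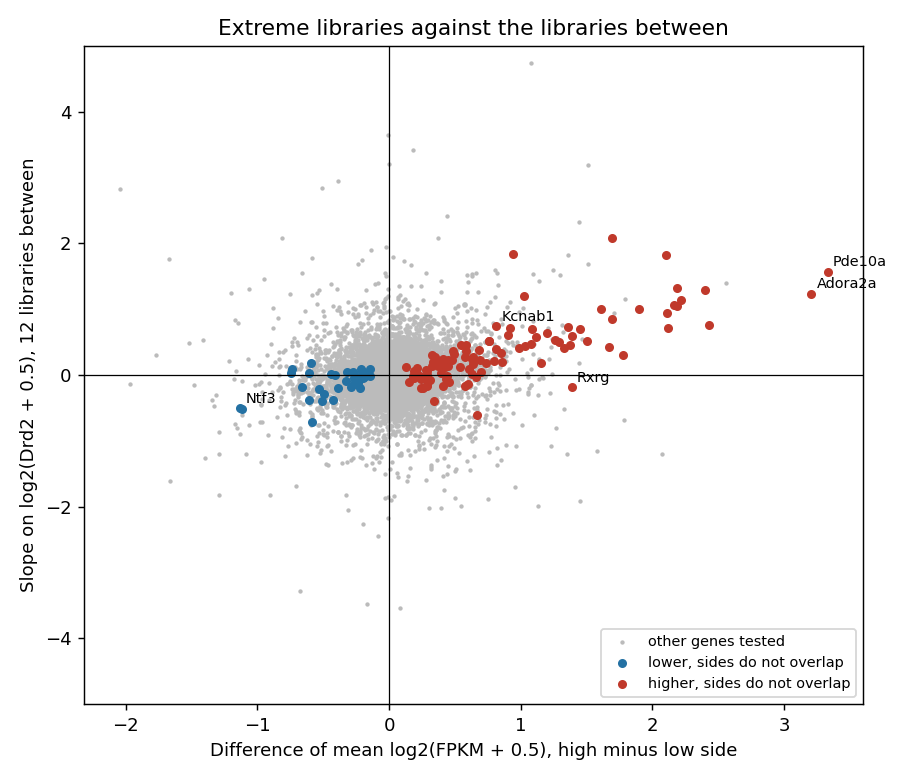
Slope on log2 Drd2 over the 12 libraries between (vertical, cut at 5 in both directions, which leaves 3 genes outside) against the difference between the sides (horizontal), for 13805 genes, both on the scale of log2(FPKM + 0.5). Of the 105 red genes, 82 lie above 0 on the vertical axis, and of the 35 blue genes 23 lie below.

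The genes most like Drd2 over all 24 libraries were Syndig1l, Ppp4r4, Scn4b, Kcnab1 and Cacna2d3, by the Pearson correlation of log2 values. Syndig1l, a synaptic membrane protein gene, had r = 0.87 and Spearman's rho = 0.87. Over the 24 libraries it was at 11.8 to 21.96 FPKM on the high side, 3.99 to 10.6 FPKM between and 3.27 to 6.996 FPKM on the low side. The other 4 had r of 0.86, 0.86, 0.85 and 0.85. Without the 2 libraries farthest from the median Drd2, the 5 values of r ran from 0.83 to 0.88. These are descriptions without a test, since the 12 extreme libraries take part, and they share library composition.

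The difference of Drd2 between diets did not pass the test. In the 6 libraries of a diet, mean Drd2 and its SD were 15.2 ± 5.499 FPKM for BCAA100, 12.6 ± 8.03 for BCAA200, 8.81 ± 6.06 for BCAA20 and 8.26 ± 2.55 for BCAA50 (n = 6 each). All 4 diets overlapped, and each had libraries in the middle range.

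The limma F-test of Drd2 over the 4 diets gave an unadjusted p = 0.173 and an adjusted p = 0.918. With single libraries left out, the unadjusted p of this limma test ran from 0.048 without BCAA20 male replicate 5 (adjusted p = 0.808) to 0.351 without BCAA100 female replicate 3. Over the 3 diets of lane 1, where the lane is shared, limma gave an unadjusted p = 0.487 and an adjusted p = 1.00. No gene passed for the 4 diets at an adjusted p under 0.05 (0%), and 821 (5.95%) had an unadjusted p under 0.05. For the lane 1 diets 0 genes passed (0%), with 337 (2.44%) at an unadjusted p under 0.05. Without the 4 doubted libraries the test of 4 diets called 13 genes, 0 of them on the striatal lists. Without BCAA50 female replicate 1 it called 8 genes, without BCAA50 female replicate 2 it called 2, and leaving out BCAA100 female replicate 2, BCAA20 male replicate 5 or BCAA20 female replicate 3 gave 1. In lane 1 the same test called 2 genes without BCAA50 female replicate 2 and 1 when BCAA50 male replicate 4, BCAA20 male replicate 5 or BCAA20 female replicate 3 was left out. Of the 43 striatal-list genes, 0 had an unadjusted p under 0.05 in the test of 4 diets. That count was 4 without BCAA100 male replicate 6 and 3 when all doubted libraries were left out. It was 2 without BCAA100 female replicate 1 or BCAA50 female replicate 1, and 1 without BCAA20 male replicate 5 or with array weights. In each setting 0 were past the adjusted threshold. The shares of all genes under these settings are not given, so these counts have no background to be read against. Drd2 was higher in males by 0.03 on the log2 scale, within the spread of the animals (limma, adjusted p = 0.995). The sex contrast was passed by 9 genes (0.0652%), with 589 (4.27%) at an unadjusted p under 0.05, and 0 striatal-list genes were among the 9.

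Choosing the libraries by another striatal gene gave nearly the same high side and a different low side. Ranked by Adora2a or by Drd1, each high side shared 5 of 6 libraries with that of Drd2, but the low sides shared 3 and 2 of 6. Ranked by Adora2a, 114 genes were higher without overlap, 49 of the 105 among them, and ranked by Drd1, 120 genes were, 47 of the 105 among them. The striatal-list genes among the higher were 27 and 26 of 43, against 20 for Drd2. Adora2a and Drd1 are list members that separate by construction under their own ranking. Each is counted there, also among the 49 and 47 shared genes, whereas Drd2 was left out of its own counts. Of the 35 lower genes, 1 was found again by Adora2a and 0 by Drd1. Within lane 1 and ranked again, 59 genes were higher, 17 of them on the striatal lists, and the median striatal difference was 0.70. Without the doubted libraries 90 genes were higher, 71 of them among the 105, with 20 striatal-list genes, and 77 were lower.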

How the data were processed

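Per the labels, RNA from 24 mouse hypothalami was made into stranded TruSeq libraries and sequenced. The authors deposited FPKM values per gene symbol, a correlation score (Pearson R) of each gene with BCAA intake and the p-value of that correlation; the score and the p-value were not used. Per the submitters' processing notes, TopHat2 2.0.14, StringTie 1.2.4 and GRCm38 were used, in roles that are not stated, and the gene annotation behind the symbols is not stated either. FPKM values hold no read counts, so the depth per library and its counting error are unknown, and how overlapping genes shared reads is not known.

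The table held 18777 symbols; 13806 had a mean of at least 1 FPKM over the 24 libraries. Values were analysed as log2(FPKM + 0.5) in R 4.3.3. The 6 libraries with the highest Drd2 were compared with the 6 lowest by differences of means and by overlap. Slopes, diets and sexes were tested with limma 3.58.1 (trend and robust moderation, Benjamini-Hochberg adjustment): slopes on 10 residual degrees of freedom, diets and sexes with 8 group means on 16. Positions came from GENCODE M21 and promoters from RefSeq, read with Python 3.11.15. The pipeline was tested on simulated data. Libraries are separate animals per the series text, so p-values measure the spread between these animals. Replicate numbers were not used as a block in the main fits.

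The libraries, gene lists and tests were chosen with earlier results of these data known. Named genes are Drd2; the 10 per direction with the largest difference among genes whose sides do not overlap, leaving out predicted genes; the 5 per direction with the lowest p over the libraries between; the 5 most correlated with Drd2; and members of the lists. The rule takes 1 gene that is not reported here, nor is 1 planned ranking of the libraries. Alternatives changed the pseudocount, filter, scaling, number of libraries per side, ranking gene, covariates and libraries left out.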

Additional observations from a re-analysis of the deposited data

Results flagged for a closer look

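Of 42 groups of 6 libraries (named genes on each side), 4 had a library far from the others by the gap to its nearest neighbour as a share of the range, and chance flags about 1 in 20 groups. Nexn was at 1.35 FPKM in BCAA20 female replicate 1 of the low side, where the next value was 0.499 FPKM. Cdkl4 was at 8.61 FPKM in BCAA200 female replicate 2 of the low side, where the next value was 6.03 FPKM. Eif4g3 was at 11.3 FPKM in BCAA200 male replicate 6 of the high side, where the next value was 21.6 FPKM. Ppil6 was at 4.25 FPKM in BCAA50 male replicate 5 of the low side, where the next value was 3.35 FPKM. Without BCAA200 male replicate 6, and with the other libraries ranked again, the log2 difference of Eif4g3 moved from -0.61 to -0.36.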

How the results depend on the processing

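The number of genes that did not overlap, 140 in all, was 91 with a mean of at least 5 FPKM, 950 with 4 libraries a side, 40 with 8 and 523 with the lane 1 libraries of both sides, a setting added after seeing the data. Higher genes numbered 455 with 4 a side, 37 with 8, 59 in lane 1 ranked again and 257 with the lane 1 libraries of both sides. Lower genes numbered 19 with the stricter filter, 77 without the doubted libraries, 495 with 4 a side, 3 with 8, 56 in lane 1 ranked again and 266 with the lane 1 libraries of both sides. Fewer libraries a side make separation easier by construction. The median striatal difference was 1.47 ranked by Adora2a. Rprm turned to 0.0295 by Adora2a and 0.0897 by Drd1, and Cdkl4 to 0.0366 by Drd1; the cause was not tested. Diet calls rose from 0 to 13 without the doubted libraries and to 1 with array weights. Leaving out each library in turn gave 101 to 168 genes in all, 76 to 105 higher and 21 to 77 lower, a median striatal difference of 0.88 to 1.07, 0 to 0 slopes past the threshold, and 0 to 8 genes for the 4 diets, 0 to 2 for the diets of lane 1 and 8 to 11 for sex. With a replicate block the diets called 0 genes, and Drd2 had p = 0.0479 (adjusted p = 0.871 in limma); deviations of same-numbered libraries correlated at 0.0158 on average (36 pairs) and 7 of 24 libraries correlated best with their own number, so the samples share only a number. FPKM without counts leave the precision of low genes unknown.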

Other observations

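Lists of several cell classes of the hypothalamus and its surroundings had smaller median differences, in either direction, than the striatal lists. Over all 13805 genes tested, 7477 had a difference above 0. Of 16 oligodendrocyte genes, 13 had a difference above 0 and 0 were without overlap (median log2 difference 0.28). Of 11 astrocyte and 11 microglia genes, 7 each were above 0, with medians of 0.06 for both. The 8 thalamic genes had a median of 0.00, the 5 tested hypothalamic transcription factors one of -0.17 and the 9 genes of tanycytes and ependyma one of -0.08. Without BCAA100 male replicate 5, a comparison added after seeing the data, these medians were 0.08, -0.51 and -0.37. In that comparison 8 of the 9 tanycyte and ependyma genes were below 0. The values of these lists thus depended on this library. Of 10 endothelial genes, 8 were above 0 (median 0.09), and Slco1a4, an organic anion transporter of brain endothelium, did not overlap, at 9.21 to 12.7 FPKM against 5.04 to 8.71 FPKM.

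Choroid plexus RNA was uneven on the high side. Ttr, the transthyretin gene of the choroid plexus, was at 369 FPKM in BCAA200 male replicate 6 and 120 FPKM in BCAA200 female replicate 3, and at 1.89 to 15.7 FPKM in the other 4 high libraries. On the low side it was at 1.02 to 6.72 FPKM. Of 8 genes of striatal interneurons, 6 were above 0 and 0 were without overlap (median 0.73), and Chat, the acetylcholine-synthesising enzyme, was at 2.37 to 6.63 FPKM against 0.498 to 2.48 FPKM. Of 16 immediate early genes, 12 were above 0 (median 0.09). Junb, a transcription factor gene of that list, is listed at 0 in 3 high libraries (BCAA200 female replicate 3, BCAA100 female replicate 3 and BCAA100 male replicate 4) and in BCAA20 male replicate 4 of the low side, and lay between 7.55 and 29.6 FPKM in the other 20 libraries.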
